A study of Mus musculus with 47 samples.

Results

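The expression of 32 neural and neuronal genes was followed through mouse embryonic stem cells (ESCs) and day 11 embryoid bodies (EBs, the cell aggregates in which ESCs differentiate) with and without an siRNA against Tdg, the gene of thymine DNA glycosylase. The genes were taken by symbol from a fixed list, and 32 of 32 were found among the 24507 genes of the day 11, 48 h and 96 h expression tables and among the 26182 genes of the tables of sorted cells. The series holds 47 samples of the ESC line E14Tg2A and of EBs made from it, 28 of them RNA libraries, and 20 RNA libraries in 10 groups of 2 are described here. After transfection with control siRNA (siC) or with siRNA to Tdg (siTdg), ESCs were profiled whole at 48 h and at 96 h, or after sorting into the G1 and the G2/M phase of the cell cycle (named G2M here). EBs were collected at day 11 from siC and siTdg transfected cells. All cells were E14Tg2A, with no further genetic change named in the labels, and ESCs were kept in serum-free N2B27 medium with PD0325901 (a MEK inhibitor), CHIR99021 (a GSK3 inhibitor) and leukaemia inhibitory factor. The series title concerns TDG and cell-cycle-driven p53, and the labels do not give a purpose for the EB samples.

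Neural tissue arises from ectoderm whose progenitor cells carry transcription factors such as Sox1 and Pax6 and the intermediate filament protein nestin. Notch ligands such as Dll1 and targets such as Hes5 hold part of these cells as progenitors, while proneural factors (Neurog1, Neurog2, Neurod1) commit others to become neurons. Neurons then build an axonal cytoskeleton (Tubb3, Dcx, Map2, Stmn2, Gap43) and a machinery for synaptic release (Syt1, Snap25). EBs grown in serum or without neural induction form derivatives of all germ layers, so neural genes in them report one lineage among many.

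The bases upstream of the start of 4 of the genes are shown because these genes gave the differences between libraries described further on: Tubb3, Nes and Fabp7 differed most between EB libraries, Tubb3 and Nes were called at 48 h in the authors' deposited table, and the Lhx2 libraries of the cell-cycle phases did not overlap. Each line holds the 250 bases before the annotated start, 5′ to 3′ on the gene's strand, from the RefSeq promoter table of build GRCm38.p6, with each CpG, the dinucleotide that DNA methylation marks, in capitals. The positions are chr8:123411303-123411552 for Tubb3, chr3:87970843-87971092 for Nes, chr10:57784673-57784922 for Fabp7 and chr2:38339031-38339280 for Lhx2, all on the plus strand, and for Lhx2 the first of 2 listed starts was used.
Tubb3: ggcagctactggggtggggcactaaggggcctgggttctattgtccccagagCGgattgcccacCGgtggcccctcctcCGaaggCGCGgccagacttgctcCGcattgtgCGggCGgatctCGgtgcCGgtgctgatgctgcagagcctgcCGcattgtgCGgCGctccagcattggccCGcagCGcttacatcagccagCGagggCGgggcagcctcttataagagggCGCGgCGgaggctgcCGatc
Nes: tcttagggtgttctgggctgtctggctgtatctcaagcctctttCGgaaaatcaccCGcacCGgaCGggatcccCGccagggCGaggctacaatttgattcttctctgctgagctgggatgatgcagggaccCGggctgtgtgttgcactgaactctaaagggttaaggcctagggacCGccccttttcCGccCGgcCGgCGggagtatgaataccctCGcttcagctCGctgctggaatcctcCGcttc
Fabp7: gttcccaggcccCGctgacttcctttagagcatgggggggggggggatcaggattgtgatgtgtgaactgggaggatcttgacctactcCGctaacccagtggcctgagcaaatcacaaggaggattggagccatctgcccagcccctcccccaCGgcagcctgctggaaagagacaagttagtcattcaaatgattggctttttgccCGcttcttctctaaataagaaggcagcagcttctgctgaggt
Lhx2: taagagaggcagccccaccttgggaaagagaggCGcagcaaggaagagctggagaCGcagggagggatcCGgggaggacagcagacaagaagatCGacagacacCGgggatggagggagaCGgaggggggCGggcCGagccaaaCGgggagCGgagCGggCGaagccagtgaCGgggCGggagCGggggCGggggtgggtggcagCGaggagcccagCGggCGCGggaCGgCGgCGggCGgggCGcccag
The Tubb3 window holds 21 CpG, the Nes window 15, the Fabp7 window 4 and the Lhx2 window 25. Over the 25 of 32 genes with an entry in the table the count ran from 3 (Dcx) to 47 (Pou4f1) with a median of 21, against a median of 6 over the 27018 genes of the table. At least 10 CpG stood in 20 of the 25 windows, against 38.2% of all genes. Stmn2, Gap43, Ncam1, Sox9, Snap25, Olig1 and En2 had no entry. The E-box letters CANNTG, the core motif of proneural bHLH factors, were found at least once in 9 of the 25 windows (36.0%) and in 66.1% of all windows of this length. These shares were not matched for base content, and the 25 windows were richer in CpG, so the difference was not tested. The motif reads the same on both strands, and a match is a run of letters, not a measured binding site.

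Libraries held 20818174 to 41433232 reads. The targeted gene was checked first: Tdg stood at 46.0 and 43.4 RPKM (reads per kilobase of exon, scaled for library depth by the authors within each table) with siC at 48 h and at 7.34 and 13.2 RPKM with siTdg. At 96 h the siC libraries had 35.8 and 46.0 RPKM and the siTdg libraries 28.2 and 40.3 RPKM, and in EBs the siC libraries had 35.1 and 38.5 RPKM and the siTdg libraries 37.3 and 43.7 RPKM, so Tdg was not lower with siTdg in EBs. In sorted cells Tdg lay between 54.8 and 63.1 RPKM with siC and between 7.53 and 12.3 RPKM with siTdg. The day 11 libraries stood apart by replicate number: libraries numbered 1 had 38825128 (siC) and 41433232 (siTdg) reads and those numbered 2 had 21775039 and 20818174. The labels do not say whether replicates were separate cultures, and the p-values below therefore reflect only how far these libraries vary, possibly for technical reasons.

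Most of the genes were at low levels in every table, and several of the others stood higher in ESCs than in EBs or the reverse. In the EB libraries 4 of the 32 genes (12.5%) reached 1 RPKM in all 4 libraries, namely Ncam1, Nes, Gap43 and Lhx2, against 44.6% of all 24507 genes. At 48 h and at 96 h the count was 5 of 32, and in the sorted siC and sorted siTdg cells 8 of 32, against 41.2% to 43.3% of all genes. Below 0.1 RPKM in all libraries of the table were 14 of 32 genes in EBs (30.7% of all genes), 15 at 48 h and 19 at 96 h. The heat map of the 32 genes shows Stmn2 and Tubb3 as the brightest rows in ESCs, and Ncam1, Gap43 and Nes in EBs.

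**Figure D1:**
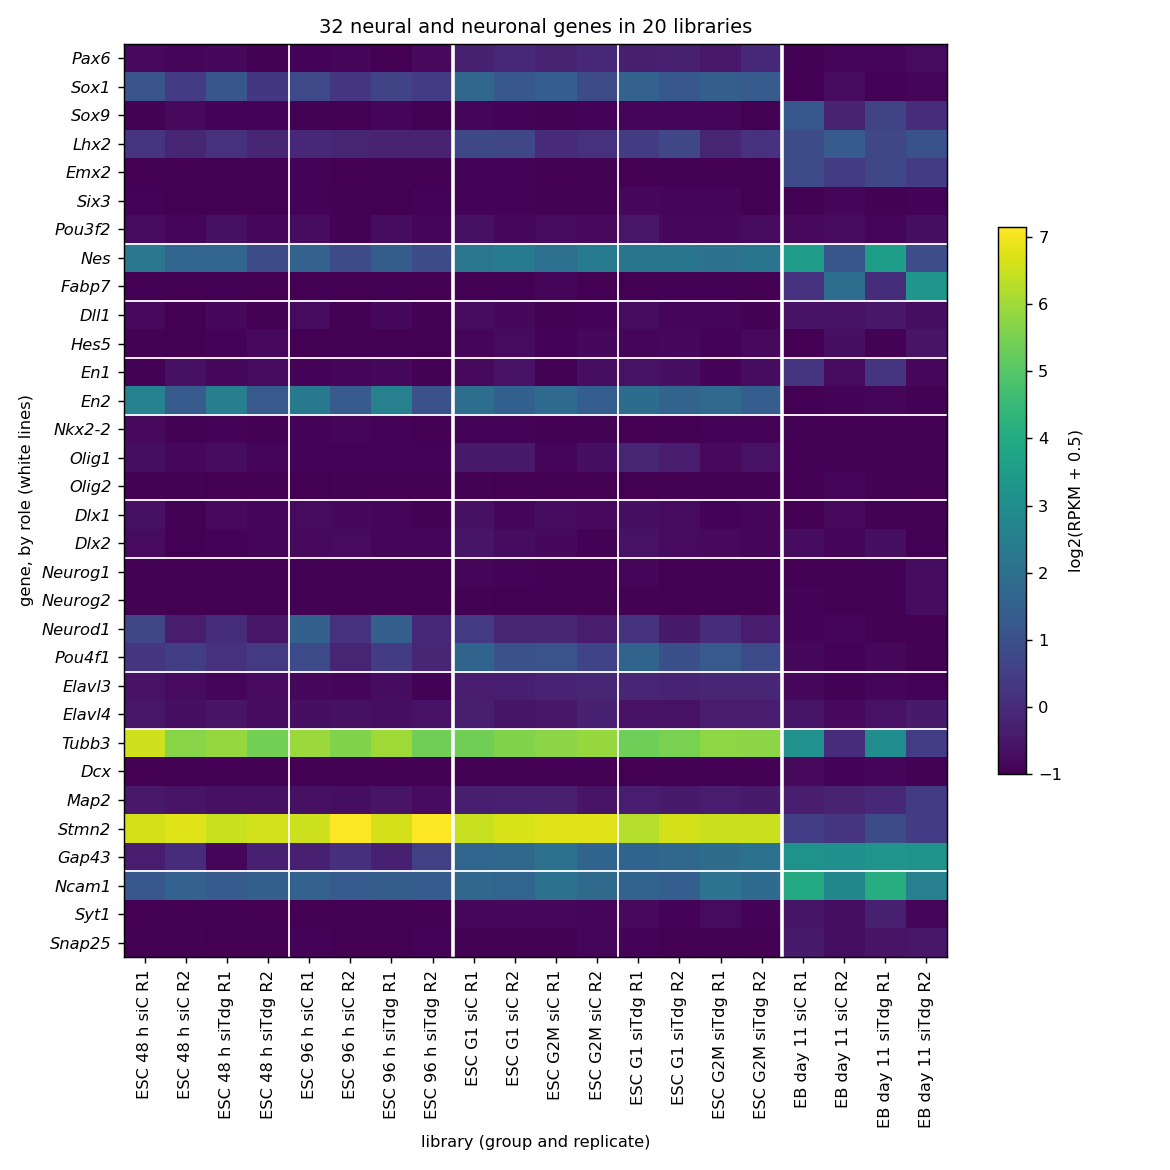
Level of the 32 genes (rows, grouped by role between thin horizontal lines) in the 20 libraries (columns, R1 and R2 for replicates 1 and 2), as log2(RPKM + 0.5); thick vertical lines divide the unsorted ESCs, the sorted ESCs and the EBs. Stmn2 and Tubb3 lie above 40 RPKM in each of the 16 ESC libraries, and Ncam1 and Gap43 above 5 RPKM in each of the 4 EB libraries.

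In 7 of the 32 genes every one of the 16 ESC libraries lay above every one of the 4 EB libraries. The tables were scaled separately, so these levels are set side by side without a test. The share of all genes that separate in this way was not computed, so the count only describes these genes. The exonic length behind the RPKM also differed for some genes between the sorted and the other tables. It was 1739 and 1723 bases for Tubb3, and 5192 and 4820 bases for Syt1. Stmn2, a phosphoprotein that regulates microtubules in growing axons, ran from 75.8 to 142 RPKM in ESCs with a median of 98.0, and from 0.703 to 1.33 RPKM in EBs. Tubb3, the beta-tubulin used to mark young neurons, ran from 40.6 to 94.5 RPKM in ESCs with a median of 52.5, and from 0.528 to 8.19 RPKM in EBs. Both markers of differentiated neurons were thus far more abundant per kilobase in the undifferentiated cultures than in the EBs. En2, a homeobox regulator of the midbrain and hindbrain, ran from 1.54 to 5.57 RPKM in ESCs and stayed at or below 0.0549 RPKM in EBs. Sox1, a transcription factor of the early neural plate, ran from 0.721 to 2.73 RPKM in ESCs and reached at most 0.0929 RPKM in EBs. Pou4f1, which specifies sensory neurons, ran from 0.397 to 2.62 RPKM in ESCs and reached at most 0.0663 RPKM in EBs. The bHLH factor Neurod1 ran from 0.207 to 2.30 RPKM in ESCs, with at most 0.0429 RPKM in EBs. Olig1, a regulator of the oligodendrocyte lineage, was low throughout, at 0.0306 to 0.392 RPKM in ESCs and at most 0.00966 RPKM, or 1 read in a library, in EBs.

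Pluripotency markers show what the ESC libraries held beside these genes: each of 12 markers of pluripotent cells was at or above 1 RPKM in all ESC libraries, with a summed level of 3871 to 8297 RPKM, against 26.8 to 119 RPKM in EBs. Among 59 other neuronal genes 14 reached 1 RPKM in all libraries at 48 h, and 7 did in EBs. The part that differentiated cells within the ESC cultures have in the ESC levels was not tested, and in bulk RNA fewer cells of a type cannot be told apart from less RNA per cell.

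In 8 of the 32 genes every EB library lay above every ESC library, again without a share over all genes to set beside the count. Ncam1, the neural cell adhesion molecule, which mesoderm also carries, stood at 15.0 and 6.18 RPKM in the siC and at 16.4 and 5.30 RPKM in the siTdg EB libraries (replicates 1 and 2), and ran from 1.84 to 3.77 RPKM in ESCs. Gap43, a growth-cone protein, stood at 8.38, 8.11, 8.94 and 8.54 RPKM in the same order. Its 4 EB values lay closer together than those of any other tested gene of the set, while ESC levels ran from 0.0541 to 0.945 RPKM in unsorted and from 2.58 to 3.70 RPKM in sorted cells. Fabp7, the brain fatty acid binding protein of radial glia, stood at 0.633, 3.37, 0.538 and 9.14 RPKM in EBs and was listed at 0 in 15 of the 16 ESC libraries. Emx2, a homeobox gene of the dorsal forebrain and of the urogenital tract, stood at 1.32, 0.845, 1.17 and 0.829 RPKM in EBs and at most at 0.0325 RPKM in ESCs. Sox9, a regulator of neural stem cells and of cartilage, stood at 1.90, 0.388, 1.11 and 0.520 RPKM in EBs and at most at 0.0767 RPKM in ESCs. Dll1 at 0.113 to 0.227 RPKM, Snap25 at 0.120 to 0.253 RPKM and Dcx at 0.0181 to 0.0802 RPKM in EBs completed this set, with at most 36 reads in any EB library.

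**Figure D2:**
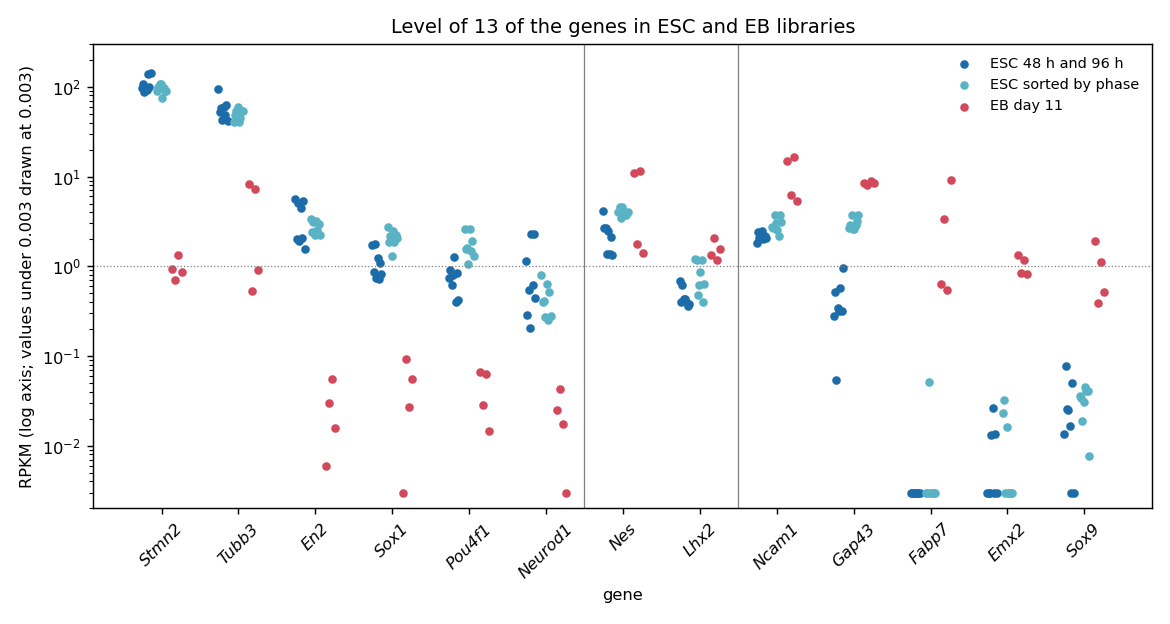
RPKM (log axis) of 13 of the 32 genes in each library, as points for the 8 unsorted ESC, 8 sorted ESC and 4 EB libraries; grey vertical lines divide genes higher in ESCs (left), overlapping (middle) and higher in EBs (right), and the dotted line marks 1 RPKM. The EB points of Stmn2 lie between 0.703 and 1.33 RPKM and its ESC points between 75.8 and 142 RPKM.

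The levels of the other 17 genes overlapped between ESCs and EBs. Nes, the filament protein of neural progenitors, stood at 10.8 and 1.77 RPKM in siC and at 11.5 and 1.41 RPKM in siTdg EBs. The EB libraries numbered 1 thus lay above its ESC range of 1.32 to 4.54 RPKM, and those numbered 2 lay inside it. Lhx2, a LIM homeobox factor of the forebrain and eye field, ran from 1.16 to 2.05 RPKM in EBs and from 0.357 to 1.21 RPKM in ESCs. The dendritic protein Map2 stood at 0.285, 0.374, 0.428 and 0.838 RPKM in the EB libraries. En1, a partner of En2 in the midbrain and hindbrain that limb ectoderm and somites also use, stood at 0.690 and 0.684 RPKM in the EB libraries numbered 1 and at 0.0839 and 0.0649 RPKM in those numbered 2, with 3 or 4 reads in the latter. Pax6, a master regulator of forebrain and eye, ran from 0.0220 to 0.0928 RPKM in EBs (5 to 8 reads a library), from 0.00730 to 0.0768 RPKM in unsorted ESCs and from 0.229 to 0.467 RPKM in sorted ESCs. The RNA-binding protein gene Elavl3 showed the same gap, with 0.0132 to 0.162 RPKM in unsorted and 0.292 to 0.425 RPKM in sorted ESCs, across tables that were scaled separately.

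Several proneural, ventral, eye-field, interneuron and synaptic genes of the set were at low levels or near 0 in EBs. The proneural genes Neurog1 and Neurog2 had at most 3 and 4 reads in any EB library. The ventral and oligodendrocyte regulators Nkx2-2 and Olig2 had at most 2 reads each, and the eye-field factor Six3 had at most 4. The interneuron regulators Dlx1 and Dlx2 had at most 4 and 15 reads, and the Notch target Hes5 had at most 4. Elavl3 and Elavl4, Syt1 (the calcium sensor of synaptic vesicles) and the POU factor Pou3f2 stayed at or below 0.327 RPKM. When the label of the set as neural and neuronal was checked, the members above 0.5 RPKM in all 4 EB libraries were Ncam1, Nes, Gap43, Tubb3, Fabp7, Lhx2, Emx2 and Stmn2, several of which other tissues share. Of these Nes and Lhx2 overlapped their ESC ranges, and Tubb3 and Stmn2 lay below theirs. Sox9 passed this level in all but the siC library numbered 2. The synaptic gene Snap25 lay above its ESC range in every EB library, at a low level.

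Whether the Tdg siRNA changed these genes in EBs was tested with limma on log2(RPKM + 0.5) over 13300 genes whose mean reached 0.5 RPKM, at a Benjamini-Hochberg adjusted p under 0.05. Of the 32 genes 9 passed this filter on low values and none was called, and 0 of 13300 genes were called (0%), with 20 genes (0.15%) at an unadjusted p under 0.05, none of them among the 9. In simulated data with the spread of these libraries the test recovered 0% of 67 genes changed 2-fold, 0% of 67 changed 4-fold and 0% of 66 changed 8-fold, so differences of these sizes were not detectable by this test, which has no term for replicate number. The authors' deposited table gave an adjusted p for 10 of the 32 genes, with none under 0.05 (lowest 1.00), against 10 of 13424 genes (0.0745%).

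Within each replicate number the siTdg and siC levels in EBs were close for most of the 9 genes. Gap43 was the single one of the 9 whose siTdg libraries both lay above both siC libraries, by 0.08 on the log2 scale (SE 0.34; limma adjusted p = 1.00), where 5.17% of all tested genes did not overlap in this direction and 4.13% in the other. Tubb3 differed by -0.15 within libraries numbered 1 and by 0.44 within those numbered 2. Nes differed by 0.08 and -0.25, and Ncam1 by 0.13 and -0.20. Fabp7 had the largest fitted difference, 0.59 (SE 1.29), with -0.13 within libraries numbered 1 and 1.31 within those numbered 2. Lhx2 was lower with siTdg in both, by -0.14 and -0.30, and Stmn2 was higher in both, by 0.35 and 0.19. The median log2 difference was -0.04 over the 9 genes, against 0.02 over the 13300 genes tested. Over all 32 genes it was -0.01, but most of these lay under the filter, where the added 0.5 RPKM keeps differences small. The plot of the EB libraries shows the points of the same replicate number lying together for Ncam1, Nes, Tubb3 and Fabp7, whatever the siRNA.

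**Figure D3:**
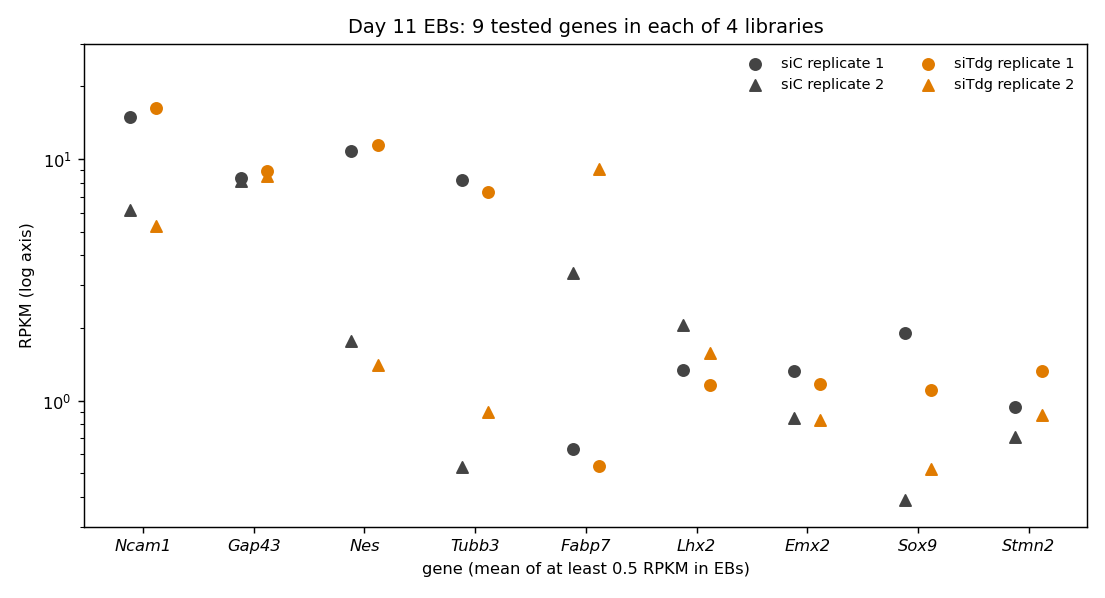
RPKM (log axis) of the 9 tested genes in each day 11 EB library; grey points are siC, orange points siTdg, circles replicate 1 and triangles replicate 2. Both circles of Nes lie above 10 RPKM and both triangles below 2 RPKM, while the 4 points of Gap43 lie between 8.11 and 8.94 RPKM.

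The EB libraries numbered 2 differed from those numbered 1 far more than siTdg from siC. The siC and siTdg libraries of a number stand as its replicates here. The p-values thus measure only how alike the difference was with siC and with siTdg. Tubb3 was lower in them, at 0.528 and 0.898 RPKM against 8.19 and 7.31 RPKM, a log2 difference of -2.78 (SE 0.18; limma adjusted p = 1.1e-14 with the siRNA as a term and 1 residual degree of freedom). Nes was lower, at 1.77 and 1.41 RPKM against 10.8 and 11.5 RPKM (log2 -2.49, SE 0.16; limma adjusted p = 2.0e-14). Ncam1 was lower by a log2 difference of -1.37 (SE 0.15; limma adjusted p = 1.5e-09) and Sox9 by -1.05 (SE 0.20; limma adjusted p = 2.8e-05). Fabp7 was higher, at 3.37 and 9.14 RPKM against 0.633 and 0.538 RPKM (log2 2.49, SE 0.22; limma adjusted p = 1.2e-11), from 48 and 126 reads against 23 and 19. Of the 9 tested genes 5 were called, against 73.9% of all 13300 genes (37.6% higher and 36.4% lower; 75.7% at an unadjusted p under 0.05), so the share called among these genes was no larger than among all. Lhx2 (0.39, SE 0.18; limma adjusted p = 0.051), Emx2 (-0.38, SE 0.19; 0.063), Stmn2 (-0.33, SE 0.19; 0.11) and Gap43 (-0.05, SE 0.15; 0.75) were not called.

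The difference between the EB replicates moved with gene length. The Spearman correlation of the 2 minus 1 difference with exonic length over 13300 genes was -0.53 in siC and -0.51 in siTdg, a description across genes, which share their libraries. In 20 bins of 665 genes by length the median difference fell from 1.43 in the second shortest bin, which holds Fabp7 (762 bases), to -0.91 in the longest, which holds Ncam1 (9773 bases). Tubb3 (1723 bases) at -2.78 lay below the quartiles of its bin, -0.14 to 1.21, and Nes (6126 bases) at -2.49 lay below -1.06 to -0.13. Gap43 (1301 bases), which hardly differed, also lay below its bin, whose quartiles were 0.29 to 1.72. Ncam1 (-1.37 against -1.28 to -0.51), Sox9 (-1.05 against -0.81 to 0.20) and Stmn2 (-0.33 against -0.20 to 1.04) lay below their bins' quartiles too. Fabp7 lay above its quartiles of 0.64 to 2.14, and Lhx2 and Emx2 lay inside. With a length correction chosen after the data were seen, Fabp7 stood at 1.00, Ncam1 at -0.49, Tubb3 at -3.29 and Gap43 at -0.94. With it 9 of the 9 genes were called, where 8945 of all 13300 tested genes were called. Scaled by total reads, the median of all tested genes moved from 0.00 to -0.38 and the share of higher calls from 50.8% to 34.0%. With this scaling 8 of the 9 genes were called, where 10176 of all 13300 tested genes were called. Relative to that median Tubb3 lay at -2.74, Fabp7 at 2.55, Lhx2 at 0.44 and Gap43 at -0.09.

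**Figure D4:**
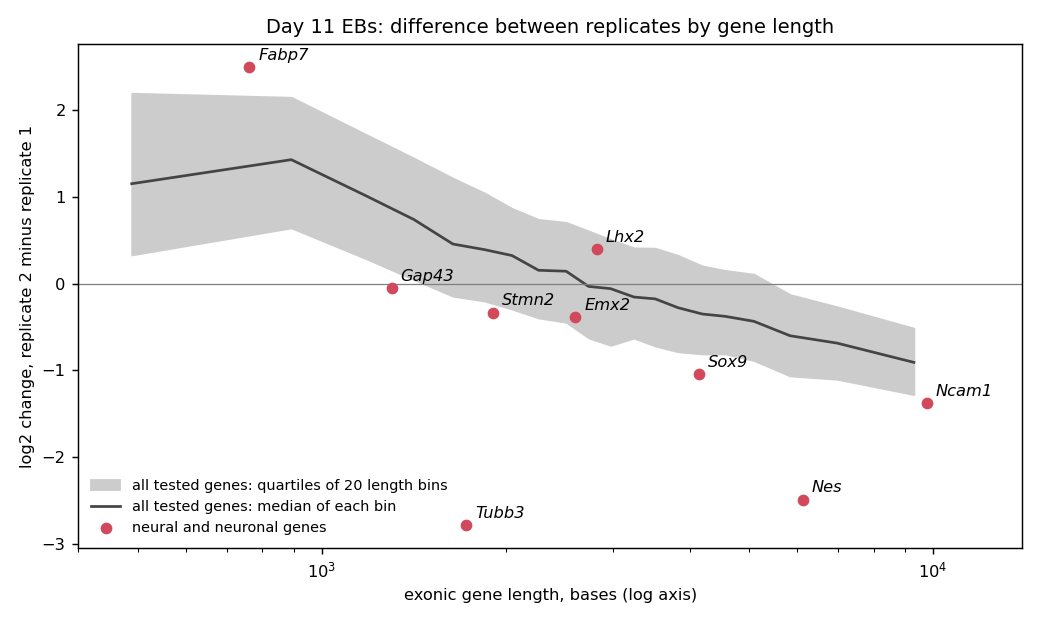
Log2 difference between day 11 EB libraries numbered 2 and 1 (with the siRNA as a term) against exonic gene length in bases (log axis); the line and the grey band are the median and quartiles of 20 bins of 665 genes each, and red points are the 9 tested genes. Tubb3 at -2.78 and Nes at -2.49 lie farthest below the band, Gap43, Stmn2, Sox9 and Ncam1 lie below their bins' quartiles by less, and Fabp7 at 2.49 lies above.

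Markers of other cell types moved with the EB replicate number as well, where 37.6% of all tested genes were called higher and 36.4% lower. Summed over 8 chondrocyte markers the level was 36.7 and 41.3 RPKM in the libraries numbered 1 and 9.66 and 9.79 RPKM in those numbered 2, and 6 of 6 tested markers were lower, Col11a1 by -3.35. Of 5 tested erythroid markers 5 were higher in the libraries numbered 2, and the sum over 10 genes was 325 and 740 RPKM there against 7.47 and 13.8 RPKM, with Hba-a1 listed at 0. For 12 cardiac markers the sum was 221 and 194 RPKM in libraries numbered 1 and 755 and 1151 RPKM in those numbered 2, with 5 markers higher and 2 lower of 10 tested. Yolk sac and visceral endoderm markers summed to 115 and 235 RPKM against 313 and 519 RPKM, with 6 higher and 3 lower of 10 tested. Epithelial markers summed to 530 and 669 RPKM against 219 and 220 RPKM, with 1 higher and 6 lower of 7 tested. Endothelial markers, at 56.1 to 74.1 RPKM, had 2 higher and 6 lower of 9, and pluripotency markers had 4 higher and 4 lower of 8. The 7 skeletal muscle markers summed to 4.46 to 11.2 RPKM, nearly all from Acta1, with Myog at or below 0.11 RPKM. The part of these cell types, of depth and of gene length in the differences of Tubb3, Nes, Ncam1, Sox9 and Fabp7 was not tested beyond the values given.

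Other neural genes in EBs also differed between the replicate numbers, in shares to be read against the 73.9% of all tested genes that were called (37.6% higher and 36.4% lower). Of 43 other progenitor and patterning genes 16 were tested, of which 11 were lower in the libraries numbered 2 (among them Gli3, Egr2, Foxa2, Vim, Zic1, Shh, Sox2, Nr2f2, Meis2 and Prom1) and 2 higher (Otx2 and Irx3). The most abundant of them were Vim, the filament protein of progenitors and mesenchyme, at 410 to 755 RPKM, Meis2 at 12.5 to 19.0 RPKM and Gli3 at 3.13 to 11.3 RPKM. Of 21 other Notch pathway genes 17 were tested, with 11 lower (Lfng, Maml1, Jag2, Notch1, Notch3, Notch2, Jag1, Numb, Hes1, Rbpj and Hey2) and 2 higher (Hes6 and Hey1). The Notch mediator Rbpj at 18.1 to 30.7 RPKM, Hes1 at 10.3 to 17.6 RPKM and Hes6 at 6.13 to 17.9 RPKM led that list, while the ligand gene Dll1 stayed at or below 0.227 RPKM. Of 59 other neuronal genes 16 were tested, with 8 lower (Rtn1, Dpysl3, Stmn4, Syn1, Prph, Map1b, Nefl and Crmp1) and 5 higher (Uchl1, Isl1, Syp, Gad2 and Snap91). The broadly used genes Uchl1 at 21.5 to 31.8 RPKM and Vamp2 at 14.4 to 19.3 RPKM led it, followed by Dpysl3 at 3.55 to 19.5 RPKM. Of 12 neural crest and peripheral glia genes (Snai2, Ets1 and Snai1 the highest, at 2.01 to 17.7 RPKM) 7 were tested. Of these 4 were lower (Snai1, Ets1, Twist1 and Erbb3). Of 9 glial genes (Slc1a3, Pdgfra and Mbp the highest) 4 were tested, with 2 lower (Mbp and Pdgfra). Whether crest or glial cells were present in the EBs was not tested. Of the neural antisense RNAs Pantr1 was the single one tested and was higher. With siTdg against siC in EBs, 0 genes of these lists were called.

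In ESCs at 48 h the siTdg means of Nes and Tubb3 lay below the siC means. Limma did not call either gene in the fit used here, which has no term for replicate number. Nes stood at 4.16 and 2.68 RPKM with siC and at 2.64 and 1.38 RPKM with siTdg (means 3.42 ± 1.04 and 2.01 ± 0.889, SD, n = 2), with both siTdg libraries below both siC libraries. Tubb3 stood at 94.5 and 51.9 RPKM with siC and at 57.6 and 42.8 RPKM with siTdg, so its groups overlapped, while it was lower within each replicate number (log2 -0.71 and -0.27). The log2 differences were -0.67 (SE 0.39) for Nes and -0.49 (SE 0.35) for Tubb3, and limma called neither (adjusted p = 1.00 for both). It called 0 of the 8 tested genes and 0 of 12190 genes (0%), with 54 genes (0.443%) at an unadjusted p under 0.05, and recovered 17.9% of 2-fold and 86.6% of 4-fold changes in simulated data. In the authors' deposited table the log2 difference was -0.80 (SE 0.19) for Nes and -0.50 (SE 0.12) for Tubb3, each with an adjusted p of 0.0036, and these were the 2 of 5 genes of the set with an adjusted p that lay under 0.05, against 1.35% of 8393 genes. For Nes and Tubb3 the call thus differed between the test without a term for replicate number and the authors' table. With such a term limma called both genes, as the closing section gives, and the labels do not say what a number marks.

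None of the other tested genes at 48 h was called. Stmn2 stood at 97.8 and 108 RPKM with siC and at 87.7 and 96.7 RPKM with siTdg, below in both libraries by a log2 difference of -0.16 (SE 0.27; limma adjusted p = 1.00), where 10.1% of tested genes did not overlap in this direction and 8.71% in the other. En2 stood at 5.57 and 2.01 RPKM with siC and at 5.09 and 1.90 RPKM with siTdg. Neurod1 had 1.15 and 0.284 RPKM with siC and 0.550 and 0.207 RPKM with siTdg, lower within each replicate number and overlapping between groups. The log2 differences were -0.09 for En2, -0.05 for Sox1, -0.14 for Pou4f1 and 0.03 for Ncam1. The median over the 8 tested genes was -0.15, against -0.01 over the 12190 genes tested. Over all 32 genes, most of them under the filter, it was -0.04.

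At 96 h, when the Tdg levels of siC and siTdg cells overlapped, none of the genes was called. Nes stood at 2.48 and 1.36 RPKM with siC and at 2.13 and 1.32 RPKM with siTdg (log2 -0.11, SE 0.39). Tubb3 stood at 59.9 and 48.6 RPKM with siC and at 63.3 and 41.7 RPKM with siTdg (log2 -0.07, SE 0.35). Stmn2 stood at 91.8 and 140 RPKM with siC and at 98.6 and 142 RPKM with siTdg, with replicate numbers further apart than the siRNAs. Neurod1 showed the widest gap between replicate numbers, at 2.30 and 0.619 RPKM with siC and at 2.27 and 0.440 RPKM with siTdg. Limma called 0 of 8 tested genes and 0 of 12190 genes (0%), with 11 (0.0902%) at an unadjusted p under 0.05, and the groups of all 8 genes overlapped, where 4.56% of tested genes lay higher and 4.46% lower without overlap. The authors' deposited table gave an adjusted p for 2 of the 32 genes, Stmn2 and Tubb3, neither under 0.05, against 0.144% of 6246 genes. Tested directly, the siTdg difference at 96 h minus that at 48 h was 0.56 (SE 0.55) for Nes and 0.42 (SE 0.49) for Tubb3, and limma called 0 of 12190 genes (adjusted p = 1.00 for both).

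**Figure D5:**
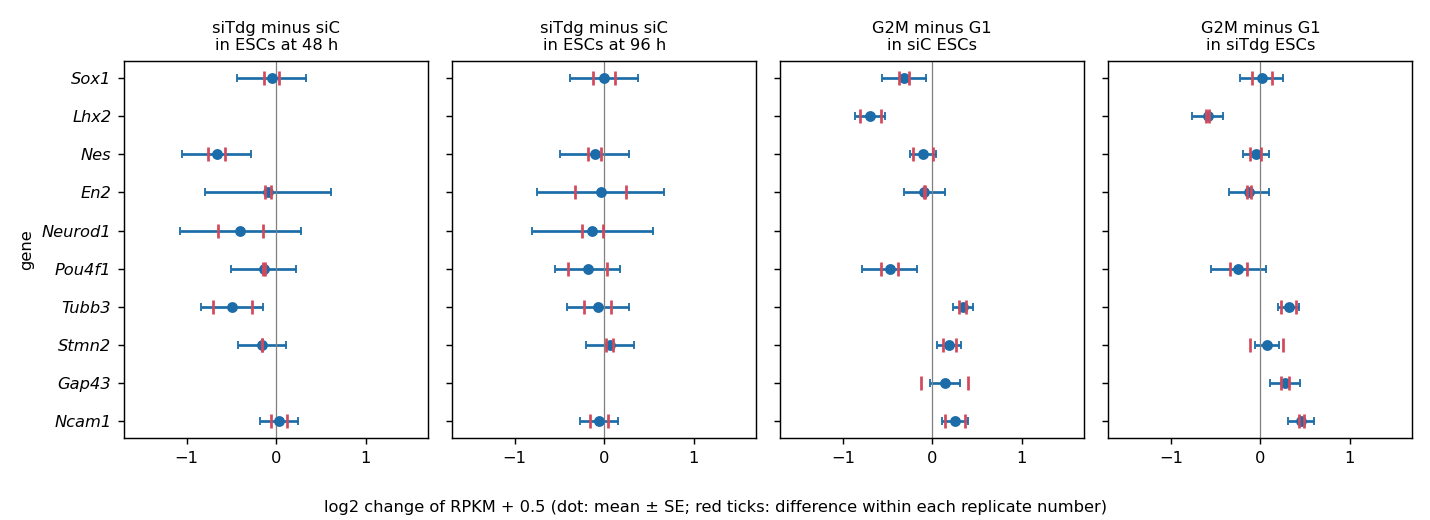
Log2 difference of each tested gene in ESCs in 4 comparisons (panels); blue dots and bars are limma's estimate and standard error, and red ticks the difference within each replicate number. Lhx2 lies at -0.69 and -0.59 and Tubb3 at 0.34 and 0.32 in the panels of sorted cells, with both ticks on the same side of 0.

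Between cell-cycle phases the G2M libraries of Lhx2 lay below, and those of Tubb3 and Ncam1 above, the G1 libraries with either siRNA. Limma called none of the 3 genes in the fit used here, which has no term for replicate number. With such a term the calls for these genes differed, as the closing section gives, and the labels do not say what a number marks. With siC, Lhx2 had 1.21 and 1.18 RPKM in G1 cells against 0.476 and 0.624 RPKM in G2M cells, and with siTdg 0.865 and 1.18 RPKM against 0.398 and 0.628 RPKM. The G1 and G2M libraries of Lhx2 did not overlap with either siRNA, and its log2 differences were -0.69 and -0.59 (SE 0.17 each). Tubb3 had 41.0 and 47.9 RPKM in G1 against 53.4 and 59.2 RPKM in G2M cells with siC, and 40.6 and 45.3 RPKM against 53.8 and 53.1 RPKM with siTdg (log2 0.34 and 0.32, SE 0.11 each). Ncam1 had 2.75 and 2.68 RPKM in G1 against 3.69 and 3.01 RPKM in G2M cells with siC, and 2.55 and 2.20 RPKM against 3.77 and 3.13 RPKM with siTdg (log2 0.25 and 0.46, SE 0.14 each).

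Limma called 0 of the 9 tested genes in siC cells (0.12% of 12462 genes were called, 8.12% at an unadjusted p under 0.05) and 0 of 9 in siTdg cells (0.169%, and 9.96% unadjusted). Of all tested genes 0.104% were called higher and 0.016% lower in G2M with siC, and 0.144% and 0.0241% with siTdg. The limma adjusted p was 0.32 and 0.36 for Lhx2, 0.48 and 0.44 for Tubb3 and 0.76 and 0.38 for Ncam1, with siC and siTdg. Libraries that did not overlap between phases were common: 23.3% of tested genes were higher in this sense and 17.8% lower with siC, and 19.7% and 13.6% with siTdg, and among the 9 genes it was 3 higher and 1 lower in each. The third gene that was higher was Stmn2 with siC (G1 89.0 and 100 RPKM, G2M 107 and 108 RPKM) and Gap43 with siTdg (G1 2.61 and 2.87 RPKM, G2M 3.16 and 3.70 RPKM). The authors' deposited table had, of 8 genes with an adjusted p, 1 under 0.05 with siC, Tubb3 at 0.0016 (8.48% of 10828 genes), and 1 of 10 with siTdg, Ncam1 at 0.016 (5.02% of 11613 genes). The G2M minus G1 difference in siTdg cells also moved with gene length (Spearman 0.38 over 12533 genes, against 0.10 over 12382 with siC), and Ncam1 is the longest of the 9 genes.

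No phase difference was called as unequal between the siRNAs, which does not show that they were alike. The difference in siTdg minus that in siC cells was 0.11 (SE 0.24) for Lhx2, -0.02 (SE 0.16) for Tubb3 and 0.20 (SE 0.20) for Ncam1, with limma adjusted p = 1.00 for each and 0 of 12462 genes called. Pou4f1 had 2.62 and 1.54 RPKM in G1 against 1.60 and 1.07 RPKM in G2M cells with siC (log2 -0.48, SE 0.31), and 2.58 and 1.48 RPKM against 1.93 and 1.29 RPKM with siTdg (log2 -0.25, SE 0.31), lower within each replicate number and overlapping between phases. Nes overlapped between phases, with 4.06 and 4.53 RPKM in G1 against 3.41 and 4.54 RPKM in G2M cells given siC, and at 3.69 to 4.03 RPKM in all siTdg libraries. Olig1, which was too low to be tested, had 0.249 and 0.259 RPKM in G1 against 0.0364 and 0.135 RPKM in G2M cells with siC. With siTdg it had 0.392 and 0.290 RPKM against 0.0784 and 0.160 RPKM, so that G1 lay above G2M with both siRNAs. These values rest on 2 to 20 reads a library with siC and on 5 to 23 with siTdg. Among all tested genes 17.8% with siC and 13.6% with siTdg were lower in G2M without overlap. Of the lists of other progenitor, Notch, neuronal, crest and glial genes, 0 genes were called by limma in any of the 4 ESC comparisons.

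Several of the genes overlap other transcripts in the RefSeq annotation of GRCm38.p6, among them Dlx1 with Dlx1as, Six3 with Six3os1, Sox1 with Sox1ot, Pax6 with Pax6os1 and Elp4, Nkx2-2 with Nkx2-2os and Lhx2 with Gm27197 and Gm13584. The library kit keeps strand, but whether strand was used in counting is not given in the sources used here, so reads of such pairs cannot be told apart with certainty.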

How the data were processed

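RNA of ESCs and EBs was measured by sequencing of rRNA-depleted libraries made with a kit that keeps strand. Per the file headers the authors deposited RPKM values per gene, scaled within each table of 4 libraries, and tables of their comparisons with a log2 fold change, an adjusted p-value and a mean normalised signal (reads divided by a size factor). TopHat, DESeq2, Bowtie, DiffBind and the builds mm9 and dm3 are named in the submitters' processing notes, with no role, and neither the gene annotation nor the strand setting of counting is stated there or in the labels. The whole reads behind the RPKM were recovered (100.0% of positive values whole within 0.01 reads). Libraries of a group were no duplicates by a chi-square test of reads (at least 21.3 per degree of freedom).

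Here log2(RPKM + 0.5) of genes with a mean of 0.5 RPKM or more was fitted with limma 3.58.1 in R 4.3.3 (empirical Bayes with a trend, two-sided, Benjamini-Hochberg over all genes tested, threshold 0.05). The 4 EB libraries were fitted alone, the 48 h and 96 h libraries together and the sorted libraries together. The fits were tested on simulated data with 200 changed genes. Alternatives covered the pseudocount (0.1, 1), the filter, scaling, limma-voom on recovered reads, the trend, replicate number as a term and leaving out each library. Genes and lists were chosen with earlier results of these data known. All 32 genes were accounted for, and of each other list the 3 most abundant genes in EBs and the called genes were to be named; called genes of the lists of other tissues are given as counts. The name of 1 called patterning gene is not reported here. Not used were 4 columns of sorted cells at 0 h, which match no sample, the day 9 EB libraries and the peak files. The authors' 96 h table was written with decimal commas and lacks the names of 17 genes.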

Additional observations from a re-analysis of the deposited data

How the results depend on the processing

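The count of the 32 genes called stayed at 0 for siTdg against siC in EBs and at 96 h under each alternative, and leaving out each library in turn gave 0 to 0 in these comparisons, at 48 h and between phases. With the replicate block, limma called 2 of 8 genes at 48 h (Nes, adjusted p = 0.014, and Tubb3, 0.019), 3 of 9 between phases with siC (Lhx2, Tubb3 and Pou4f1) and 3 of 9 with siTdg (Lhx2, Tubb3 and Ncam1), and a length correction with the replicate block, chosen after the data were seen, called 2, 3 and 2, without Ncam1 in the last. Over all genes the block called 150 in EBs, 280 at 48 h, 15 at 96 h, 1076 with siC and 1686 with siTdg, against 0, 0, 0, 15 and 21, and with the length correction 114, 283, 10, 1508 and 1706. Without a filter 4 genes were called at 96 h. Leaving out a library gave 0 to 1 genes in EBs, 0 to 17 with siC and 0 to 8 with siTdg. The replicate numbers are shared by only 2 pairs, whose deviations correlated at 0.85 (48 h), 0.93 (96 h), 0.95 (EBs), 0.66 (siC phases) and 0.72 (siTdg phases), and the labels do not say what a number marks. Between EB replicates 5 of the 9 tested genes were called, 8 when scaled by total reads and 9 after the length correction. Of all 13300 tested genes 9833, 10176 and 8945 were called in the same order. The scaling and the correction were both chosen after the data were seen. Leaving out a library left no residual degrees of freedom, so those values had no test. Of 854 values of single genes under alternatives 27 crossed the threshold. Among values called in the main or the alternative fit, 0 changed sign. A change of sign in a value called in neither fit was not counted. The median difference over the 32 genes ran under the alternatives from -0.05 to 0.03 in EBs. It ran from -0.27 to 0.01 at 48 h and from -0.16 to 0.01 at 96 h. The 0% recovery in simulated EB data holds for the test without the replicate block.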
